A study of Mus musculus with 5 samples.

Results

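Primordial germ cell-like cells made from a biparental female embryonic stem cell line (ESC-PGCLC) were compared with primordial germ cells taken from the fetus (PGC), by the CpG methylation level of each region. Regions in the CG context entered when all 5 libraries of the series listed them, which kept 154711 of the 176303 CG regions listed in at least 1 library and used 2 of the 5 samples for the comparison itself. The regions fall into 8 classes: CpG islands (CGIs), the flanks of islands (CGI shores), repeats, promoters, and the exons, introns, 5' UTRs and 3' UTRs of genes. Each side is 1 library, so a difference is between 2 libraries, not between 2 conditions, and carries no replicate error and no p-value.

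All libraries came from C57BL6 mice and were made by reduced representation bisulfite sequencing (RRBS), in which DNA is cut at CCGG sites by MspI and CpG-rich fragments are read after bisulfite conversion. To make ESC-PGCLC, the female line was held for 46 h as epiblast-like cells, then for 4 days under germ cell induction, and sorted for CD61 together with SSEA1. PGC were isolated from gonads at embryonic day E12.5 with SSEA1 beads, and the labels do not give their sex. The other 3 libraries, used here for context, were the female embryonic stem cell line (female ESC), a parthenogenetic embryonic stem cell line with 2 maternal genomes (pESC), and germ cell-like cells induced from it in the same way (pESC-PGCLC). Each induced or stem cell library stands for 1 line. The assay gives no expression, so neither label could be checked against marker transcripts, and methylation of germ cell, gonadal, endothelial and fibroblast genes is described by level instead.

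Primordial germ cells are the embryonic founders of eggs and sperm. During migration and in the gonad they lose most DNA methylation genome-wide. This includes the parent-specific methylation of imprinted genes and the promoter methylation of genes used in meiosis and in transposon defence. Retrotransposons such as IAP elements are known to keep part of their methylation through this phase, and in vitro germ cell-like cells are usually likened to earlier, migrating germ cells. A level measured in bulk averages over cells and over both alleles, so fewer methylated cells and fewer methylated alleles per cell cannot be told apart. The E12.5 PGC library did not show a loss of most methylation: repeats had a mean of 40.8%, beside 50.2% in female ESC. The Airn and Kcnq1ot1 islands, at imprinted genes, had 52.1% and 61.7% in PGC. The reason was not tested, so these levels are those of the library and not of fetal germ cells in general.

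The data went in 2 directions at once. Over most methylated sequence ESC-PGCLC had the higher level, by more points at 20 to 80% in the other libraries than below, whereas 29 islands and shores were lower in ESC-PGCLC by at least 25 points, 20 of them at maternally methylated imprinted genes in 9 of 18 loci. Of all 30910 islands and shores, 45 were at maternally methylated genes. On the X chromosome, islands and shores with little methylation were more often lower than higher in ESC-PGCLC. Differences below are ESC-PGCLC minus PGC in percentage points of methylation, pairs of levels give ESC-PGCLC first and PGC second, and a region is counted as apart at 25 points or more.

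Promoter windows of 3 imprinted genes with lower levels in ESC-PGCLC and of 3 germ cell genes with higher levels are shown because each overlaps the measured island of its gene and holds at least 1 CCGG site, the sequence cut in RRBS. They run from 250 bases before to 50 bases after the annotated start (RefSeq, GRCm38.p6), 5' to 3' on the gene's strand, with each CG in capitals. The windows are Zrsr1 (chr11:22971755-22972054, plus strand), Plagl1 (chr10:13090582-13090881, plus strand), Mcts2 (chr2:152686898-152687197, plus strand), Sycp1 (chr3:102936051-102936350, minus strand), Tuba3a (chr6:125286032-125286331, minus strand) and Mael (chr1:166238695-166238994, minus strand).
Zrsr1: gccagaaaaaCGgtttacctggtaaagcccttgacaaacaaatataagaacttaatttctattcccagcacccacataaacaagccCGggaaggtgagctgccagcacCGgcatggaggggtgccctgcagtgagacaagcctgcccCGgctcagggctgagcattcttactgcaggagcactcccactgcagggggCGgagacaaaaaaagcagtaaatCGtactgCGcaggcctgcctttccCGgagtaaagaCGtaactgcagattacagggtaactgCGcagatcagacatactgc
Plagl1: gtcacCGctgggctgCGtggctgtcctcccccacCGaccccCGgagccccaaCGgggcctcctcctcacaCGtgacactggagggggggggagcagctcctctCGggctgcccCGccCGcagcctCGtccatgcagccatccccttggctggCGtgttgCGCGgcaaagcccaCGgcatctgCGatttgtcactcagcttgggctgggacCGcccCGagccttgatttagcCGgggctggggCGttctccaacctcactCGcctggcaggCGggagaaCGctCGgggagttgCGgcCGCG
Mcts2: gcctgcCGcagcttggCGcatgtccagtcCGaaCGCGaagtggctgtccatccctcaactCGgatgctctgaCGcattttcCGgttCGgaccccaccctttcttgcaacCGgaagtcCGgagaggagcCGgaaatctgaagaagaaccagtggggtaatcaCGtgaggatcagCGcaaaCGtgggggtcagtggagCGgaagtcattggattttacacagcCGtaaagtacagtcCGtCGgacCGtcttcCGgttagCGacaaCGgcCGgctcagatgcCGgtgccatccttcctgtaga
Sycp1: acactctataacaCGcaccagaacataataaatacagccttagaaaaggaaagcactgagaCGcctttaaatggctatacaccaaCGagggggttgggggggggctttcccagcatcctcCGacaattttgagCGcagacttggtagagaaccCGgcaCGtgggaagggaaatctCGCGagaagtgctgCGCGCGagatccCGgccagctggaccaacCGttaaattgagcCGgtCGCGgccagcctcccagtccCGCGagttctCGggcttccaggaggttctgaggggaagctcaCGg
Tuba3a: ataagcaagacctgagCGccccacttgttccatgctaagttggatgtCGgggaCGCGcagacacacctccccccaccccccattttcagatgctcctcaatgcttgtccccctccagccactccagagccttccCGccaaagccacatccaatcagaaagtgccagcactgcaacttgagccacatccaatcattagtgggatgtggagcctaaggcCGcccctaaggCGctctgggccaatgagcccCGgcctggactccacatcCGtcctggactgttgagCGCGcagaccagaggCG
Mael: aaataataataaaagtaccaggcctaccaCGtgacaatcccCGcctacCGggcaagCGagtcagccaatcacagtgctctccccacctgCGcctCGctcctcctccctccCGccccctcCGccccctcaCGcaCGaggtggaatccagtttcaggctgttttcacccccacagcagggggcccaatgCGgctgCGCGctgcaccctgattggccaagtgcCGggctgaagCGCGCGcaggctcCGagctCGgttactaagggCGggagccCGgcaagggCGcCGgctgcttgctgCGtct
The number of CG dinucleotides is 10 in Zrsr1, 26 in Plagl1, 25 in Mcts2, 21 in Sycp1, 12 in Tuba3a and 24 in Mael, where the median over 32817 RefSeq promoter windows of 300 bases is 7. CCGG, which reads the same on both strands, occurs 4, 2, 7, 3, 1 and 4 times in that order, and 52.8% of all windows hold it at least once.

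Across the classes, mean levels were higher in ESC-PGCLC than in PGC. Islands, nearly free of methylation in both libraries, had a mean of 3.67% in ESC-PGCLC and 3.41% in PGC (difference 0.261, SD over 14214 islands 2.19). Shores had 12.46% and 11.3%, introns 26.5% and 23.7%, exons 20.6% and 18.2%, and 3' UTRs 37.4% and 33.5%. The PGC mean was between 0.881 times (5' UTRs) and 0.929 times (CGIs) the ESC-PGCLC mean. Non-CpG cytosines, which show incomplete conversion together with true non-CpG methylation, were also slightly higher in ESC-PGCLC: the mean CHH level in CGIs was 0.735% against 0.670%, a gap of 0.0649 beside the CpG gap of 0.261. With each library's mean CHH level of the class subtracted, the island difference was 0.196, and those of the other 7 classes also stayed above 0.

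Set against the mean of the other 3 libraries, the gap was small where those had little methylation and wider at 20% and above. Promoters at or under 5% there differed by 0.068 points on average (11438 promoters, SD 1.18), those at 20 to 40% by 3.55 (SD 5.80), and those at 60 to 80% by 7.25 (1110 promoters, SD 6.24), of which 92.8% were higher in ESC-PGCLC. Islands were at 0.134 at or under 5%, -0.292 at 5 to 20% and 8.05 at 60 to 80%, and 5' UTRs reached 10.6 in the same range (77 regions, SD 9.78). Above 80% the gap was no wider in most gene classes, with 6.88 over 80 promoters and 7.19 over 69 exons, where exons at 60 to 80% had 8.34. Repeats behaved otherwise at the low end: the 5424 entries at or under 20% in the other libraries averaged 9.71% in ESC-PGCLC and 10.7% in PGC, and 38.6% of them were higher in ESC-PGCLC. Low 3' UTRs did so too, with a mean difference of -1.02 at 5 to 20% over 590 regions.

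**Figure D1:**
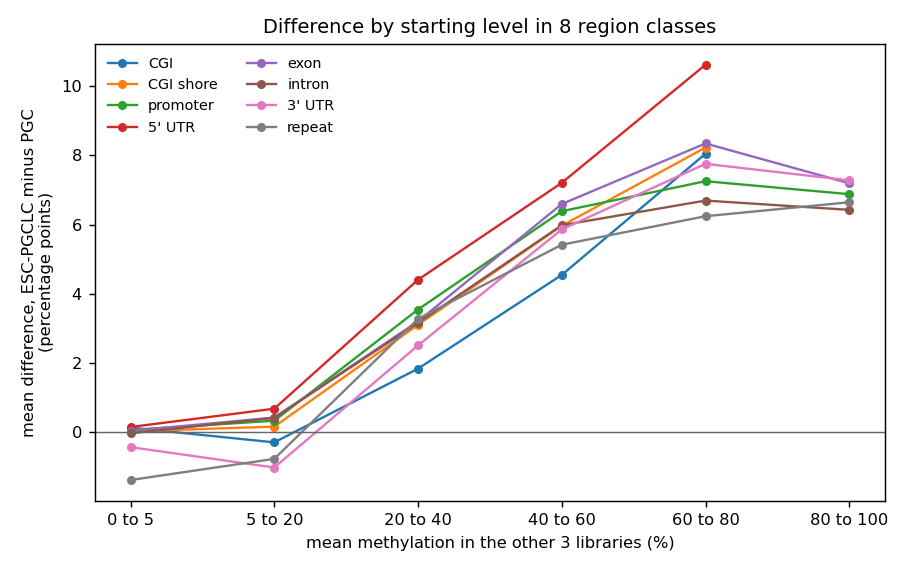
Mean difference in methylation, ESC-PGCLC minus PGC in percentage points (y axis), for regions grouped by their mean level in the other 3 libraries (x axis, percent), 1 line per region class, with groups of under 20 regions left out. Lines start between -1.38 and 0.151 and reach 6.24 (repeats) to 10.6 points (5' UTRs) at 60 to 80%, while repeats and 3' UTRs under 20% and islands at 5 to 20% sit below 0, as do introns at or under 5% by a small margin (-0.0306).

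More regions were mostly methylated in ESC-PGCLC alone than in PGC alone. Of 20388 promoters, 879 (4.31%) were over 50% in ESC-PGCLC and at or under 50% in PGC, and 45 (0.221%) the other way round. Repeats had 6164 such entries (13.2%) against 541 (1.16%), 3' UTRs 616 (13.9%) against 31, introns 1553 (7.78%) against 40, and islands 54 against 11. Promoters over 80% numbered 69 in ESC-PGCLC and 20 in PGC.

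Regions at least 25 points apart were rare in every class. Among CGIs 1 was higher in ESC-PGCLC (0.00704%) and 12 were lower (0.0844%). Among shores 15 were higher (0.0898%) and 17 lower (0.102%). Promoters had 33 higher (0.162%) and 21 lower (0.103%), 5' UTRs 12 (0.103%) and 7 (0.0601%), exons 42 (0.203%) and 18 (0.0869%), introns 21 (0.105%) and 9 (0.0451%), and 3' UTRs 18 (0.405%) and 2 (0.045%). Repeats had 528 entries higher (1.13%) and 133 lower (0.285%). With PGC levels multiplied by 1 factor per class that equalised the class means, the 5 gene classes together turned from 126 higher and 57 lower to 60 higher and 91 lower.

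Imprinted genes were a large share of the islands and shores lower by at least 25 points. Of all 30910 islands and shores, 45 were at maternally methylated genes. Joined when within 5000 bp of each other, the 29 lower islands and shores formed 18 loci, of which 9 were at maternally methylated imprinted genes and held 20 of the 29 regions, 11 of these being shores. At 10 points 150 islands and shores were lower, of which 27 were at maternally methylated genes. The 16 higher regions formed 16 loci, none at an imprinted gene of the lists. A shore can span a neighbouring island, so regions of 1 locus share reads and are not separate measurements: the Peg3 island and shore carry the same level.

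**Figure D2:**
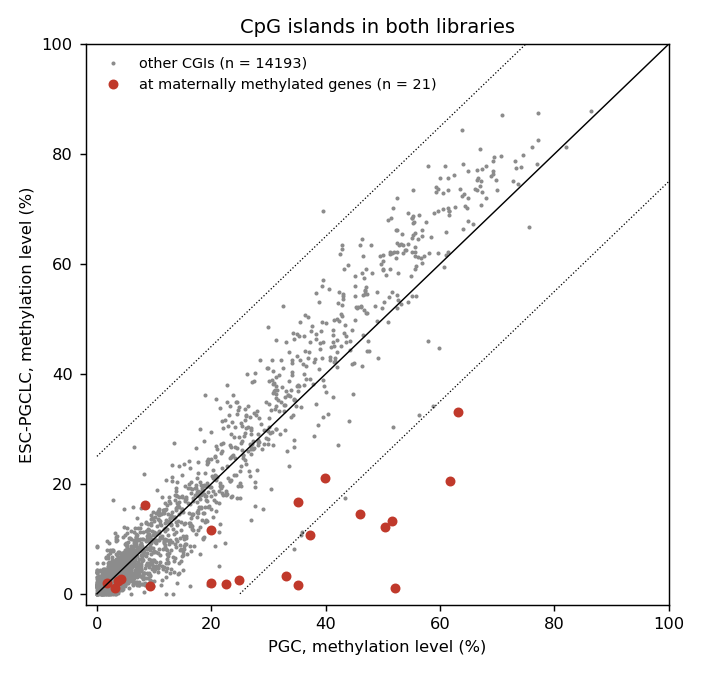
Methylation level of 14214 CpG islands in PGC (x axis, percent) and ESC-PGCLC (y axis, percent), with 21 islands at maternally methylated imprinted genes as large points. The solid line marks equal levels and the dotted lines 25 points of difference; most methylated islands lie above the solid line, and 9 of the 12 below the lower dotted line are imprinted.

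Of 18 maternally methylated genes 17 had at least 1 island or shore (Snrpn had neither), 45 regions in all. Levels were lower in ESC-PGCLC at 40 of the 45 and higher at 5. Of all 14214 islands 4510 were lower, and of all 16696 shores 6345. The median over the 45 was 10.6% for ESC-PGCLC beside 34.9% for PGC. Their median difference was -20.9, beside 0.179 over all islands and 0.397 over all shores. Female ESC had a median of 16.1%, and pESC and pESC-PGCLC had 41.3% and 40%. In 30 of these regions PGC had at least 20%: 29 of the 30 were lower in ESC-PGCLC, where 19.8% of all islands and shores at that PGC level were lower, and 26 were lower by at least 10 points, where 2.63% were. Across the 30, PGC ranged from 22.6% to 63.2% with a median of 39.9%, and ESC-PGCLC from 1.03% to 42.2% with a median of 13.0%. Female ESC was nearer to ESC-PGCLC than to PGC at 26, a count for which no share over all islands and shores was taken. The 30 were picked by their PGC level, which is part of the difference. That favours a lower ESC-PGCLC level, in the 30 and in the shares beside them. The direction of these gaps was already known when these genes were chosen, so the counts describe the list and do not support it.

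Among regions lower in ESC-PGCLC the widest gap was at Airn, where ESC-PGCLC and its parent line were both almost unmethylated. Airn, a noncoding RNA whose transcription represses Igf2r on the same chromosome, has its island inside Igf2r (mm10 chr17:12741440-12742489), with levels of 1.03% in ESC-PGCLC, 52.1% in PGC, 2.01% in female ESC, 61.2% in pESC and 62.1% in pESC-PGCLC. PGC thus lay between the 2 biparental culture libraries and the 2 parthenogenetic ones. A second island of the locus, 12769058 to 12770009, was at 0.974% against 3.20%. Zrsr1, an intronless gene inside Commd1 that encodes a splicing factor-like protein, had 6 regions, whose levels ran from 1.61% to 4.85% in ESC-PGCLC and from 22.6% to 41.3% in PGC. Its shore at chr11:22973331-22975332 was at 3.79% against 41.3%, with 3.76% in female ESC. Mest, a hydrolase gene expressed from the paternal allele, had 1 shore with 4.12% against 36.9% (female ESC 6.59%). Peg10, a retrotransposon-derived gene, had an island at 3.22% against 33.1%, with 3.25% in female ESC.

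Other imprinted loci had levels above 10% in ESC-PGCLC. The Kcnq1ot1 island (chr7:143295404-143295824), the start of the antisense RNA of the Kcnq1 domain, had 20.5% in ESC-PGCLC, 61.7% in PGC and 16.7% in female ESC, while a shore 2000 bp wide beginning at 143293403 had 37.5% and 38.5%. Nap1l5, a nucleosome assembly protein gene, had an island at 14.5% against 46.05% and a shore at 11.5% against 40.03%. Peg13, a noncoding RNA gene within Trappc9, stood at 33.0% and 63.2% in its island and at 25.3% and 55.1% in its shore. Peg3, a zinc finger gene, was the gene among the 17 where ESC-PGCLC lay furthest from its parent line: 12.2% in ESC-PGCLC, 36.2% in female ESC and 50.3% in PGC. In Gnas, the stimulatory G protein locus, the islands from 174297262 and 174298463 had 10.6% and 13.2% in ESC-PGCLC against 37.3% and 51.5% in PGC. The 3 shores that overlap them had 13.2% to 17.8% against 48.1% to 51.5%. The longest Gnas island, from 174327293, was low in both libraries (2.37% against 3.65%), as was a shore from 174295261 (6.18% against 6.78%).

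Smaller or opposite differences were seen elsewhere at imprinted genes. Plagl1, a growth-regulating zinc finger gene, was at 2.47% against 24.8%, and the island inside Impact at 21.0% against 39.8%. Grb10, an adaptor that restrains growth factor signalling, had an island from 12025554 at 1.87% against 19.9%. Its longer island was at 2.03% against 1.70%, and its shores at 15.2% against 23.3% and 26.8% against 23.1%. Mcts2, a retrogene inside H13, was low in both, at 1.39% against 9.22%. The Nnat island was at 11.7% against 19.9%, with 1 shore at 12.7% against 28.5% and the other at 42.2% against 45.6%. Inpp5f, a phosphoinositide phosphatase gene, had both directions: its inner island was at 16.7% against 35.2%, and its outer island and shore at 16.1% against 8.33% and 26.6% against 12.7%. At 5 regions shared by Gnasas1 and Gnas, from 174282646 to 174288222 on chromosome 2, both libraries were low, at 2.63% to 3.73% in ESC-PGCLC and 4.25% to 6.29% in PGC. The Slc38a4 shore was at 7.33% against 6.74%.

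At paternally methylated imprinted genes no region was 10 points apart. Dlk1, Rasgrf1 and Zdbf2 were measured (H19 and Meg3 had no island or shore) at 9 regions, of which 4 were higher and 5 lower. Of all islands and shores 2.96% were at least 10 points apart. Only 1 of the 9 had at least 20% in PGC, and the medians were 5.51% in ESC-PGCLC and 2.53% in PGC. Most could hardly be 10 points lower, so they say little about methylated paternal imprints. At the Dlk1 island with intermediate methylation, 109459744 to 109460028 on chromosome 12, ESC-PGCLC had 25.1%, PGC 23.5% and female ESC 35.0%. The island of Rasgrf1, a guanine nucleotide exchange factor gene, was at 2.13% and 2.35%.

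**Figure D3:**
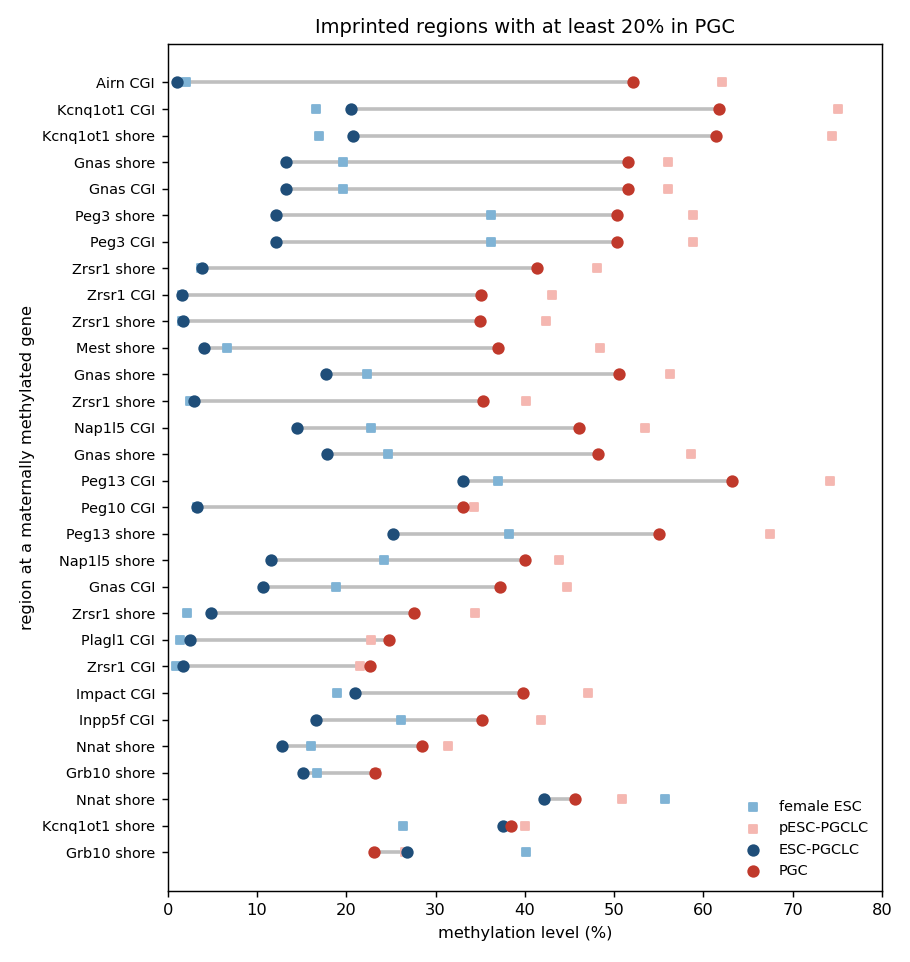
Methylation level (x axis, percent) of the 30 islands and shores at maternally methylated genes with at least 20% in PGC (y axis, 1 row per region), for ESC-PGCLC and PGC (circles joined by a bar) and for female ESC and pESC-PGCLC (squares). ESC-PGCLC lies left of PGC in 29 of the 30 rows, and female ESC lies nearer to ESC-PGCLC in 26. The rows were picked by their PGC level, which favours an ESC-PGCLC level to the left, and no background share was taken for the 26.

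Outside imprinted genes the 9 other lower loci were scattered. Their read depth is unknown, so a wide gap at a single shore or island may reflect sampling of few reads, which was not tested. The shore at Crocc, which encodes a ciliary rootlet protein (chr4:141025506-141027507), was at 6.25% in ESC-PGCLC, 50% in PGC and 0% in female ESC, but at 43.5% in pESC and 45.5% in pESC-PGCLC. Mid1, an X-linked ubiquitin ligase gene, had a shore (chrX:169984831-169986831) with 12.3%, 55.8%, 8.65%, 44.96% and 32.2% in the same order of libraries. Both thus had low levels in the 2 biparental culture libraries and higher ones in the 2 parthenogenetic libraries. The loci that follow did not show this split. A shore at Trio had 17.2% against 59.1%, with 27.6% in female ESC, 35.7% in pESC and 20% in pESC-PGCLC. Chst5, a sulfotransferase gene, had a shore at 3.51% against 32.8%, with 41.6% in female ESC. The Prrc1 island was at 8.21% against 34.5%, with 5.42% to 14.5% in the other 3.

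The widest gap with ESC-PGCLC above PGC was a shore at Oxct2a, a testis ketone body transferase gene that neighbours Bmp8a (chr4:123320417-123322417), with 74.3% in ESC-PGCLC, 20% in PGC, 70.5% in female ESC, 60.2% in pESC and 65.4% in pESC-PGCLC. PGC was here the library that stood apart from the other 4. At Zfp385c (chr11:100638048-100640048) ESC-PGCLC had 90% and PGC 44.9%, and female ESC, its parent line, 10%. At Gm41854 ESC-PGCLC stood apart, at 61.1% against 16.7% in PGC and 13.3% to 20% in the other 3. X-linked shores at Dlg3, a synaptic scaffold gene, and Zbtb33, which encodes the methyl-CpG binding protein Kaiso, had 64% against 24.04% and 51.9% against 14.3%. Csnk1e, a casein kinase gene of the circadian clock, was at 64.6% against 30.8%, and Polrmt, the mitochondrial RNA polymerase gene, at 72.6% against 44.7%. The island at the pseudogene Ppp1r2-ps5 had 69.6% against 39.6%, and shores at Tfap2b, a transcription factor gene, and Gm29721 had 38.5% against 11.2% and 70.8% against 44.1%. The Kcnn1 shore, at a potassium channel gene, had 26.7% against 0%, with 100% in female ESC. Levels such as 90%, 10%, 0% and 100% can come from few reads. As the depth is unknown, a library that stood apart at a single shore may reflect sampling, which was not tested. Female ESC was nearer to ESC-PGCLC than to PGC at 11 of the 16 higher regions and 25 of the 29 lower ones. No share over all islands and shores was taken for these counts, so they describe the picked regions only. Of the 29 lower regions, 20 were in 9 imprinted loci. Regions of the same locus can share reads, so the 25 are not separate measurements.

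Genes used in the germ line were examined at their annotated starts. Of the listed meiotic, piRNA pathway, germ granule and testis genes, 25 had an island within 1000 bp of a start, and 18 of the 25 islands were higher in ESC-PGCLC, where 68.2% of all islands were. Of their shores 26 of 27 were higher, where 61.5% of all shores were, and the medians were 38.5% and 31.3%. Where the other 3 libraries averaged at least 20%, 11 of 11 islands and 22 of 22 shores were higher, where 78.5% and 83.8% of the islands and shores at that level were. Their median differences of 6.81 and 8.001 stood beside 4.96 and 4.75 for those backgrounds.

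Several of the meiotic genes encode parts of meiotic chromosomes. Sycp1, which encodes the transverse filament of the synaptonemal complex, had 32.5% in ESC-PGCLC and 23.2% in PGC at its island, with 31.9% in female ESC, 28.3% in pESC and 21.8% in pESC-PGCLC. Sycp2 and Sycp3, of the meiotic chromosome axis, had shores at 52.3% against 31.8% and 33.6% against 25.3%. The shore of Smc1b, the meiotic cohesin, had 51.9% against 29.8%, and that of Hormad1, an axis protein gene, 38.3% against 25.8%. Stra8, the retinoic acid-induced regulator of meiotic entry, was at 47.2% against 35.0% at its island and 52.4% against 41.4% at its shore. Msh4 and Meioc went the other way at low levels, with islands at 1.61% against 8.41% and 3.53% against 6.47%.

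Genes of the piRNA pathway and germ granules, which silence transposons in germ cells, were described in the same way. Mov10l1, the piRNA helicase gene, had a shore at 63.2% in ESC-PGCLC, 49.1% in PGC and 68.0% in female ESC. Mael was at 30.4% against 22.9% at its island and 34.04% against 18.04% at its shore. Ddx4, the vasa helicase gene that marks gonadal germ cells, had nearly equal islands, 9.58% and 10.2%, beside a shore at 30.6% against 16.9%. Dazl, an RNA-binding regulator of germ cells, differed at its island, 22.9% against 16.3%, and little at its shore, 52.3% against 50.9%. Among testis genes, Tuba3a, a tubulin gene, had 42.5% against 30.6% at the island and 55.5% against 34.02% at the shore, and Dpep3 had 69.2% against 54.4%. Tex14, the intercellular bridge gene, was lower in ESC-PGCLC at its island (3.85% against 7.14%) and its shore (2.09% against 7.66%).

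**Figure D4:**
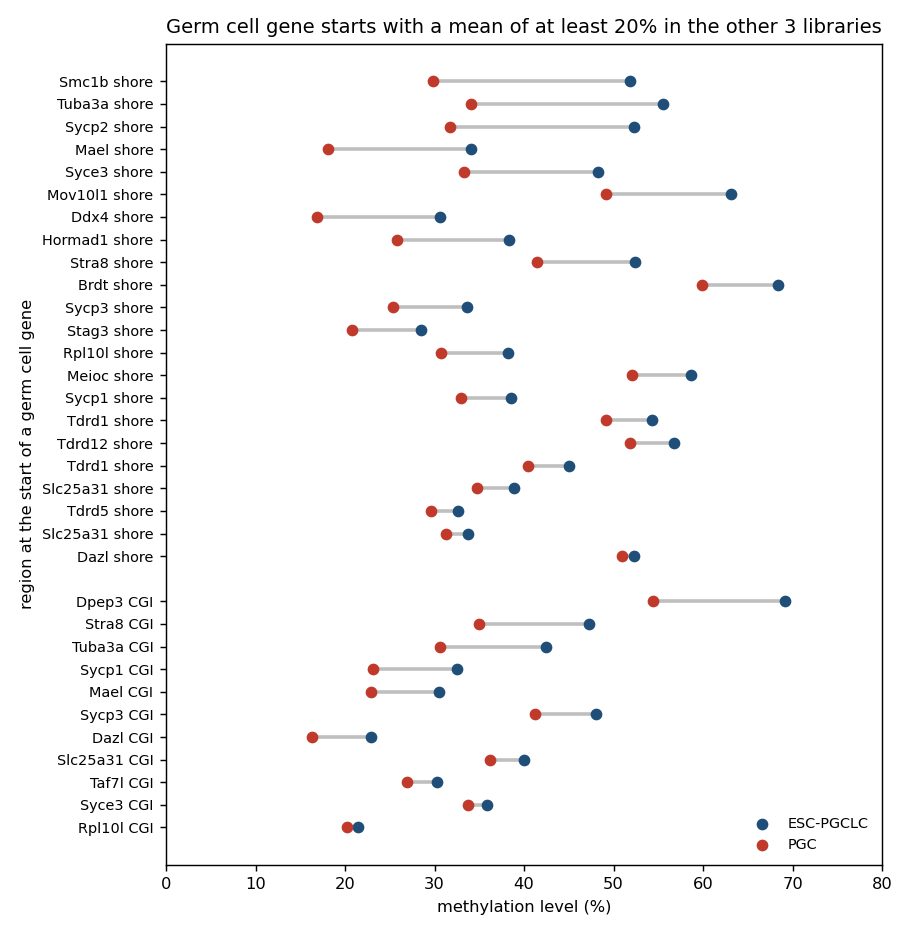
Methylation level (x axis, percent) in ESC-PGCLC and PGC at 22 shores (upper block) and 11 islands (lower block) at the starts of germ cell genes with a mean of at least 20% in the other 3 libraries (y axis, 1 row per region). ESC-PGCLC lies right of PGC in every row, by 1.23 points at the Rpl10l island and 22.1 at the Smc1b shore.

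With 1 region per gene, the longest island within 1000 bp of either gene end or otherwise the longest shore, 12624 genes had a region and 69.8% of them were higher in ESC-PGCLC, 0.515% by at least 10 points, while 0.206% were lower by at least 10 points. Meiotic genes were higher at 12 of 14 measured members and piRNA and germ granule genes at 9 of 12, falling to 10 and 6 once the overall shift of the class was taken out as 1 factor, which left 7298 of all 12624 genes higher. The piRNA and germ granule count is near the share of all genes. Testis genes were higher at 5 of 7 (4 with the factor). Gonadal somatic genes, regulators of supporting cells of the gonad, were higher at 8 of 9 members, and 3 by at least 10 points: Lhx9 (55.5% against 40.5%), Nr5a1 (70.2% against 56.3%) and Tcf21 (35.0% against 23.7%). Shores at starts of these genes had 75.7% against 59.4% at Lhx9 and 32.6% against 22.3% at Emx2, and 1 of the 3 Foxl2 shores was lower, at 0.772% against 2.04%. Of the 317 genes with at least 20% in the other 3 libraries, 78.9% were higher and 18.3% by at least 10 points.

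Most developmental regulators had little methylation in both libraries. Prdm1, the master regulator of germ cell fate, was at 1.85% against 2.5%, and Prdm14 at 1.74% and 1.71%. Klf2 and Esrrb, of the naive pluripotency network, were at 1.93% against 1.53% and 2.03% against 1.74%, and T, a mesoderm gene of the primed epiblast, at 1.82% against 1.12%. Among fibroblast genes Thy1 was at 3.99% against 5.31%, and Vim at 1.39% against 1.09%. Of endothelial and blood genes 2 of 10 were measured: Kdr at 2.28% against 2.60% and Spi1, the myeloid regulator, at 17.6% against 28.9%. Median differences of 0.0935 for PGC specification genes, 0.0586 for primed epiblast genes, 0.126 for the DNA methylation machinery and 0.240 for clustered protocadherins turned negative when the class factor was applied, so no direction is given for them. Pluripotency genes were higher at 6 of 6 (4 with the factor), trophoblast genes at 4 of 6 (4), fibroblast genes at 3 of 4 (3), and Hox genes at 29 of 37 (23), beside 69.8% of all genes, or 7298 of 12624 with the factor. Within the protocadherins Pcdha8 was at 46.4% against 33.6%, and at Dnmt3l, the cofactor of de novo methylation, both libraries were near the same level (24.9% and 23.7%), under the 39.0% of female ESC.

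The X chromosome departed from the autosomes. Of 363 X-linked islands 254 (69.97%) were lower in ESC-PGCLC, where 30.7% of autosomal islands were, and single autosomes ranged from 27.6% to 33.6%. The median X-linked island had 1.62% in ESC-PGCLC, 2.24% in PGC, 1.58% in female ESC, 1.47% in pESC and 1.84% in pESC-PGCLC. Median autosomal islands were at 1.65% and 1.47%. This held at low levels: the 330 X-linked islands at or under 5% in the other libraries averaged 1.72% in ESC-PGCLC and 2.44% in PGC, while the 15 over 20% averaged 50.4% and 44.7%. Shores of the X were split, with 49.4% lower against 37.7% of autosomal shores, and of the 234 at or under 5% in the other libraries 60.3% were lower. Among X-linked genes with wide gaps, Otud6a had a shore at 54.4% against 37.2%, Ezhip, a regulator of Polycomb activity, an island at 77.8% against 60.9%, Gabre, a GABA receptor subunit gene, a shore at 50.6% against 34.1%, and Uxt an island at 0% against 13.3%. Chromosome Y had 7 islands and shores listed in PGC and 2 in each of the other libraries. Over all chromosomes, 87 of 33121 islands and shores were listed in PGC alone. As female and parthenogenetic lines also list Y regions, a Y listing does not by itself show male cells. The sex makeup of the PGC, for which the labels give nothing, cannot be told apart from the X difference, and its part was not tested.

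Repeats had the highest mean level of the classes, 45.3% in ESC-PGCLC and 40.8% in PGC, and differed by family. Of 1034 families 293 had at least 20 entries, and the family mean was higher in ESC-PGCLC in 291 of them, with a median of 4.74 points. LINE/L1 elements, retrotransposons that encode their own reverse transcriptase, had 49.9% and 45.5% over 21176 entries (difference 4.399, SD 6.76). LTR/ERVK elements had 49.9% and 45.1%, and LTR/ERVL elements 38.9% and 33.6%. In relative terms PGC was at 0.940 times the ESC-PGCLC level in IAP internal sequences (67.5% and 63.4%), at 0.863 times in MERVL internal sequences (47.2% and 40.7%, 47 entries) and at 0.865 times in the ancient L2 elements.

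Single families showed the range. IAPEz-int, the internal part of an active IAP group, had 73.3% in ESC-PGCLC, 68.5% in PGC and 75.6% in female ESC over 328 entries. B1_Mm and B2_Mm2, short interspersed elements, were at 37.5% against 34.9% and 39.3% against 34.8%. The mean stood furthest above PGC in L1MA7 (58.6% against 45.5%, 21 entries, SD of the difference 20.7), L1MD (45.9% against 36.1%), RLTR34D_MM (45.5% against 35.9%), RLTR13D3A1 (49.6% against 40.7%) and RLTR1D2_MM (52.1% against 43.5%). The median difference was smaller than the mean in each, 5.72 for L1MA7. The smallest gaps were in RLTR25B (33.3% against 33.8%), RLTR9E (29.5% against 29.6%), RMER30 (31.7% against 31.5%), ORR1A2 (29.96% against 29.6%) and MER5A1 (33.1% against 32.1%). These small gaps depended on the summary: median differences were -2.70 for RLTR25B, 0.532 for RLTR9E, 1.45 for RMER30 and 1.99 for ORR1A2, and the RMER30 mean difference was 3.34 over all entries listed in ESC-PGCLC and PGC. The 10 families named for their wide or narrow gaps hold between 20 and 56 entries.

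**Figure D5:**
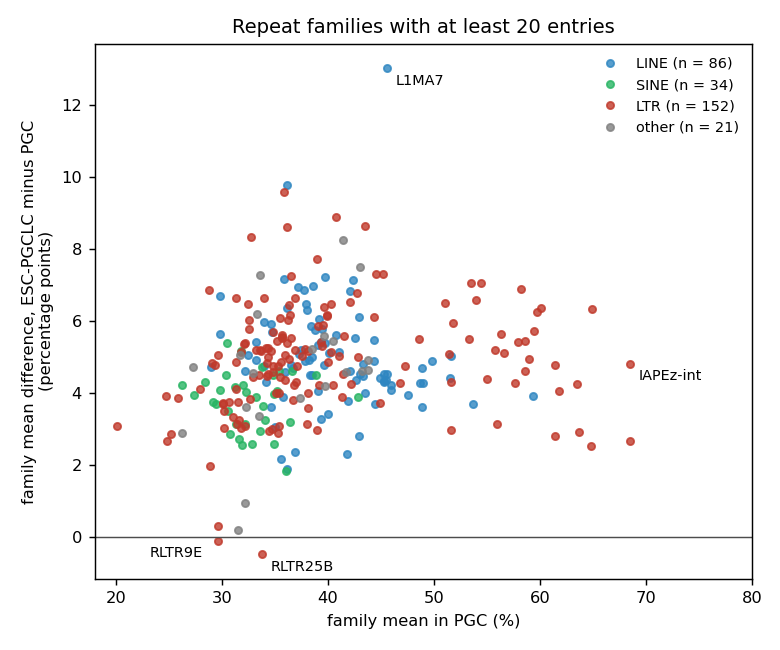
Mean difference, ESC-PGCLC minus PGC in percentage points (y axis), against the family mean in PGC (x axis, percent) for 293 repeat families with at least 20 entries, 1 point per family, coloured by LINE, SINE, LTR or other. All but 2 points, RLTR25B and RLTR9E, lie above 0, and L1MA7 stands highest at 13.0.

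Position within L1 elements went with level more than with the difference. L1MdA entries that begin in the first 500 bases of the consensus, where the promoter lies, had 62.6% in ESC-PGCLC and 58.5% in PGC, and those beginning after base 5000 had 45.8% and 41.5%, so that the differences were 4.09 (SD 4.82) and 4.36 (SD 6.39). L1MdF was alike, with 60.1% and 55.7% at the 5' end and 45.3% and 41.1% at the 3' end. L1MdTf, an active group, lacked this slope, at 48.2% and 44.7% at the 5' end and 50.2% and 45.4% at the 3' end. Its subfamilies differed: L1MdTf_I had 38.0% against 36.1% (200 entries) and L1MdTf_III 54.7% against 49.8% (796 entries). Long entries of 1000 bases of consensus or more had 55.3% and 51.0%, and those under 200 had 38.2% and 33.99%.

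Parts of genes, listed by Ensembl ID, were higher in ESC-PGCLC on average also where the promoter had little methylation. At genes whose promoter was at or under 5% in the other libraries, the promoter differed by 0.068 points, exons by 0.950, introns by 1.69 (17.9% against 16.2%) and 3' UTRs by 3.58 (37.1% against 33.5%). At genes with promoters over 60% the promoter differed by 7.23 and introns by 5.00. Of 28180 IDs 154 had a part at least 25 points apart: 114 only higher, 38 only lower and 2 both. In 20 of them more than 1 part was apart, in the same direction in 18. ENSMUSG00000000948 was lower in 4 parts, with its promoter at 29.6% in ESC-PGCLC, 66.1% in PGC, 33.1% in female ESC and 78.1% in pESC-PGCLC, and ENSMUSG00000044068 was lower in 3, with its promoter at 1.90% against 33.3%. ENSMUSG00000055228 and ENSMUSG00000074865 were higher in promoter, 5' UTR and exon: their promoters had 37.5% and 35.7% in ESC-PGCLC and 39.0% and 38.8% in female ESC, but 6.03% and 5.76% in PGC and 13.3% and 11.8% in pESC-PGCLC. Parts of 1 gene can overlap and share reads. As no ID was matched to a symbol, these IDs may belong to imprinted genes of the lists and are not separate findings.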

How the data were processed

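RRBS was done on 5 libraries, 1 per group, so no comparison has replicates. The authors deposited, per library, a methylation fraction (0 to 1) for each region and cytosine context, with no read counts, so the depth is unknown and no interval can be given. The submitters' processing notes name Bismark 0.16.3, Bowtie2 and mm10, while the sources used here do not give region definitions or coverage filters. Fractions were multiplied by 100, and CG regions listed in all 5 libraries were kept. A gene took its longest CGI within 1000 bp of either end, otherwise its longest shore, by RefSeq symbol and position (12624 genes). Ensembl IDs of gene parts matched no symbol. A difference of 25 points or more was counted as apart. The counting was tested on simulated data with a fixed read depth and planted shifts well past 25 points. That checks the counting only and says nothing of false counts at the unknown depth of these libraries. Members and gene lists were chosen with earlier results of these data known. Named were genes among the 10 widest CGIs and the 10 widest shores per direction with a symbol, both imprinted lists, up to 4 members of each other list with the widest difference, and the 5 repeat families at each end. Chst5, other list members and their shores, L1 groups and Ensembl IDs were named after their values were seen. Alternatives were all regions listed in ESC-PGCLC and PGC, thresholds of 10 and 40 points, medians, levels less the CHH level, leaving out regions at exactly 0 or 100%, the female ESC level as starting level, all regions at a gene, islands longer than 400 bp, and 1 scaling factor per class. Python 3.11.15, pandas 2.3.3, numpy 2.4.6 and matplotlib 3.10.9 were used.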

Additional observations from a re-analysis of the deposited data

Results flagged for a closer look

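On chromosome Y, 5 CGIs and shores were listed in PGC and in no other library, of 87 over all chromosomes, outside the regions compared. The sources used here do not give the sex of the PGC.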

How the results depend on the processing

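No paired analysis was possible because each group had 1 library. With no replicate spread and no depth, a value was counted as stable when it kept its direction and stayed within 1.5 times. By that measure 49 alternative values of the main results were stable, 32 moved and 0 reversed. Among single genes, families and smaller lists 66 were stable, 89 moved and 7 reversed. Counts cannot change sign, so no count could be scored as reversed. With 1 scaling factor per class, higher gene parts fell from 126 to 60 and lower ones rose from 57 to 91, which was scored as moved. The causes of these shifts were not tested. Medians in place of means gave class differences of 0.397 for shores, 0.379 for promoters, 0.197 for 5' UTRs and 0.703 for exons. Counts followed the threshold. At 10 points, 765 CGIs and shores were higher and 150 lower, with 4578 and 350 gene parts and 7836 and 1057 repeats. At 40 points these were 3 and 6, 11 and 14, and 96 and 23. Keeping all regions listed in ESC-PGCLC and PGC, whether or not in the other libraries, gave 37 higher CGIs and shores, 251 higher and 109 lower gene parts, and 967 higher and 387 lower repeats. One scaling factor per class gave 10 higher CGIs and shores, 60 higher and 91 lower gene parts, and 324 higher and 224 lower repeats. With that factor the list median was 0.473 for meiotic genes and 0.0890 for piRNA and germ granule genes. It turned to -0.0227 for PGC specification genes, -0.0910 for primed epiblast genes, -0.0899 for the DNA methylation machinery and -0.950 for clustered protocadherins. With all CGIs and shores at a gene, the median was 7.31 for meiotic, 4.46 for piRNA and germ granule and 2.01 for gonadal somatic genes, and it turned to 0.110 for paternally methylated and -0.212 for fibroblast genes. The RLTR9E median was 0.532 against a mean of -0.0988. On shores the X minus autosome mean difference was -0.486, against -0.803 on CGIs.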
